A study of Mus musculus with 20 samples.

Results

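The 25 genes described here encode subunits of the nuclear RNA polymerases I, II and III. They were chosen by name, from the genes whose symbol is Polr1, Polr2 or Polr3 followed by a letter, as given by the transcript that names an array probe. All 25 were among the 15102 genes tested, of 20972 symbols with a probe. In each of them the brightest probe stood well above background on all 20 arrays and was saturated on none. By polymerase, 3 belong to polymerase I alone, 2 to I and III, 6 to II, 5 to all of them and 9 to III. Polr2a and Polr2d were not analysed here, because no probe was matched to either symbol. A further 3 polymerase I subunits carry older symbols (Twistnb, Cd3eap and Znrd1), fall outside the rule and are given separately.

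The mice were male C57BL/6J animals in 4 groups of 5, with 1 array per mouse. Every mouse carried a Tet-binding protein under the astrocyte GFAP promoter and received doxycycline at 100 mg/kg daily for 7 days. Tat+ mice also had a TRE-driven transgene for HIV-1 Tat, the viral transactivator, so that Tat expression was directed to GFAP-expressing cells, and Tat- mice lacked it. Meth groups received methamphetamine at 2 mg/kg and Sal groups 0.9% saline on 7 consecutive days. By the labels, mice aged 6 to 7 weeks were killed 24 h after their final dose and the left hemisphere was taken. The study's methods give the caudate putamen at 1 h after a 1 mg/kg Meth challenge to all mice, following 7 days of abstinence, and an age of 3 to 5 months. Groups are named by transgene and treatment (Tat-/Sal and so on), and the questions are what Meth changes, what Tat changes, and whether the effect of Meth differs with Tat.

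RNA polymerase I transcribes the ribosomal RNA precursor in the nucleolus, polymerase II transcribes messenger RNA precursors, and polymerase III transcribes transfer RNAs, 5S ribosomal RNA and other short RNAs. Each is built around a pair of large subunits that form the active site, an alpha-like pair on which the enzyme assembles, and small subunits common to all of the polymerases. Polymerases I and III share their alpha-like pair, Polr1c and Polr1d, whereas polymerase II has its own, Polr2c and Polr2j. HIV-1 Tat acts on polymerase II, through the elongation kinase P-TEFb, which is why subunits and elongation factors are of interest in Tat+ mice.

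The starts of the subunit genes were looked at first, because many of these genes moved in the same direction in 1 comparison on the scaled values. Promoter windows of 250 bases upstream of the annotated start were taken from RefSeq (build GRCm38.p6), which matched 21 of the 25 genes, with 23 windows. The 5 shown are those of the largest rise in Tat-/Meth among polymerase I subunits (Polr1a), the shared I and III subunit Polr1c, the large subunit Polr2b, the polymerase III subunit Polr3gl and Polr2e, the lone subunit that fell on the scaled values (unscaled, 6 did). Capitals mark matches to CCGGAAG (the ETS core), GGGCGG (the GC box), CCAAT or TATAAA on either strand, and no matches overlap in these windows. Sequences are written 5′ to 3′ on the gene's strand, which is plus for Polr1a at chr6:71908803-71909052 and Polr2b at chr5:77310234-77310483. It is minus for Polr1c at chr17:46248046-46248295, Polr3gl at chr3:96594182-96594431 and Polr2e at chr10:80039660-80039909.
Polr1a: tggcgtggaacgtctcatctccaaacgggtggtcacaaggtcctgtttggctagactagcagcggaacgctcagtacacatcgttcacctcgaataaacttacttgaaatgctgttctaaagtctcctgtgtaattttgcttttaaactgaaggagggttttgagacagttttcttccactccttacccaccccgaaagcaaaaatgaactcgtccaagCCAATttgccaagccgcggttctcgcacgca
Polr1c: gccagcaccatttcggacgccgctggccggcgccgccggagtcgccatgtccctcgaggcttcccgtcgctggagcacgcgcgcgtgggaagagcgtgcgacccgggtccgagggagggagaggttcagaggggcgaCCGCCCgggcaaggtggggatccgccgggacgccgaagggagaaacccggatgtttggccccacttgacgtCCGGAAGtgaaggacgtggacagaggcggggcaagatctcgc
Polr2b: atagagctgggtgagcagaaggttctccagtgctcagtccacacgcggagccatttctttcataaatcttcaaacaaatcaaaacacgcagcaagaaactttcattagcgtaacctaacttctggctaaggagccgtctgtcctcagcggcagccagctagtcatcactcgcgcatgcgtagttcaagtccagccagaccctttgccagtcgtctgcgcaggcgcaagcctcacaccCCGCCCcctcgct
Polr3gl: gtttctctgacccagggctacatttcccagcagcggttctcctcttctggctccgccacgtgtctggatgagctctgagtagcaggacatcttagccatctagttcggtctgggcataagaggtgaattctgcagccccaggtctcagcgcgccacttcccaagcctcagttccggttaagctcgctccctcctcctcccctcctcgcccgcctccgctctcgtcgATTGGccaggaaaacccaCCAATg
Polr2e: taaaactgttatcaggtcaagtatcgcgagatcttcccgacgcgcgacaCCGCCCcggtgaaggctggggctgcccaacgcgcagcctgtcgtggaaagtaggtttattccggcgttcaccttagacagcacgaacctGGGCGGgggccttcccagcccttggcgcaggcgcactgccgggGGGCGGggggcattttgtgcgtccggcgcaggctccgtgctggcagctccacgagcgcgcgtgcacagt

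Polr2e held the GC box at 3 places, Polr1c and Polr2b at 1 each, and Polr1c also an ETS core starting 42 bases upstream of its start. Polr1a held CCAAT once and Polr3gl held it at 2 places, and none of the 5 windows held TATAAA. Over the 21 genes with a window, GGGCGG was present in 13, against 32.7% of all 32851 windows of this length. CCGGAAG was present in 5 of the 21 (6.91% of all windows), CCAAT in 7 (33.8%) and TATAAA in 1, Polr2c (12.4%). The median window of a subunit gene held 14 CG dinucleotides, against 6 over all windows. A gene was counted if any of its windows matched, whereas the shares are of single windows. They cover all promoters and not only those of the genes tested, so the units and the sets differ. These are matches of letters and were not tested for use.

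All 5 Tat-/Meth arrays were on slide 1, which held no other group, so every comparison with Tat-/Meth sets slide 1 against slides 2 and 3, and the group and the slide cannot be told apart. Tat-/Sal shared slide 2 with 3 of the Tat+/Meth arrays, and Tat+/Sal shared slide 3 with the other 2. The bright corner control spots read 14.66 to 15.06 log2 units on slide 1 and 16.80 to 17.42 on the other two. The 75th percentile of the signal, to which each array was scaled, was 9.64 to 9.79 on slide 1 and 9.75 to 10.33 on slides 2 and 3. For this reason the main counts with Tat-/Meth are given scaled and unscaled. All other values are scaled unless called unscaled, and the unscaled difference of a subunit lay 0.42 below the scaled one in Tat-/Meth vs. Tat-/Sal and 0.34 above it in Tat+/Meth vs. Tat-/Meth. Of the tissue markers, all 8 striatal genes were well above background on every array, and 2 of 5 cortical genes were. The summed scaled level of 4 neuronal markers was 17.62 to 17.82 in Tat-/Meth and 17.94 to 18.23 in Tat-/Sal, and that of 5 astrocyte markers 14.99 to 15.27 and 14.88 to 14.98, with no marker of either list below background on every array. Of these, 1 of the 4 neuronal markers passed as lower and 2 of the 5 astrocyte markers as higher. Of all genes tested 15.3% passed as lower and 35% as higher. The sums of the striatal markers overlapped (19.74 to 19.83 and 19.80 to 20.04), and 2 of the 8 passed as lower. Sums also overlapped for oligodendrocytes (1 marker higher), microglia (1 higher and 1 lower) and endothelium (1 higher). Of the 4 cortical genes tested 1 passed as lower. Unscaled, every gene lay 0.42 lower in this comparison. The part of the markers in the results was not tested, and fewer cells of a type cannot be told apart from less RNA per cell.

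In Tat-/Meth vs. Tat-/Sal, which asks what Meth changes without Tat, 16 of the 25 subunit genes were higher and 1 lower in Tat-/Meth on the scaled values, whereas unscaled 0 were higher and 6 lower. These passed at an adjusted p under 0.05 in limma, over all 15102 genes. In that comparison 5281 of all genes tested (35%) passed as higher, 15.3% as lower and 50.2% in either direction. Every Tat-/Meth array lay above every Tat-/Sal array for 13 of the subunits and below for 1, which was so for 24.7% and 11.5% of all genes. The median scaled difference of the subunits was 0.26 log2 units and that of all genes 0.14. Unscaled, the medians were -0.16 and -0.28, and 46.7% of all genes passed as lower and 0.828% as higher. The subunits' median lay 0.12 above the median of all genes, and 19 of the 25 lay above it. These are equal on both scales by construction, because scaling moves every gene by the same amount. After quantile normalization, which can move genes apart, the median of the subunits lay 0.07 above, again with 19 above it. By its brightest probe none of the subunits changed over 2-fold, a size that 6.85% of all genes passed.

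By polymerase, 5 of the 6 polymerase II subunits were higher on the scaled values, 6 of the 9 of polymerase III, 1 of the 3 of polymerase I, 1 of the 2 shared by I and III, and 3 of the 5 common to all. Scaled medians were 0.29 for II, 0.26 for III, 0.08 for I, 0.36 for the pair shared by I and III and 0.25 for the common subunits. Unscaled, 0 were higher in any of these classes, and 1 of II, 1 of III, 2 of I, 0 of the shared pair and 2 of the common subunits were lower, with medians of -0.13, -0.16, -0.34, -0.06 and -0.17. Whether the polymerases differ from each other was not tested.

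**Figure D1:**
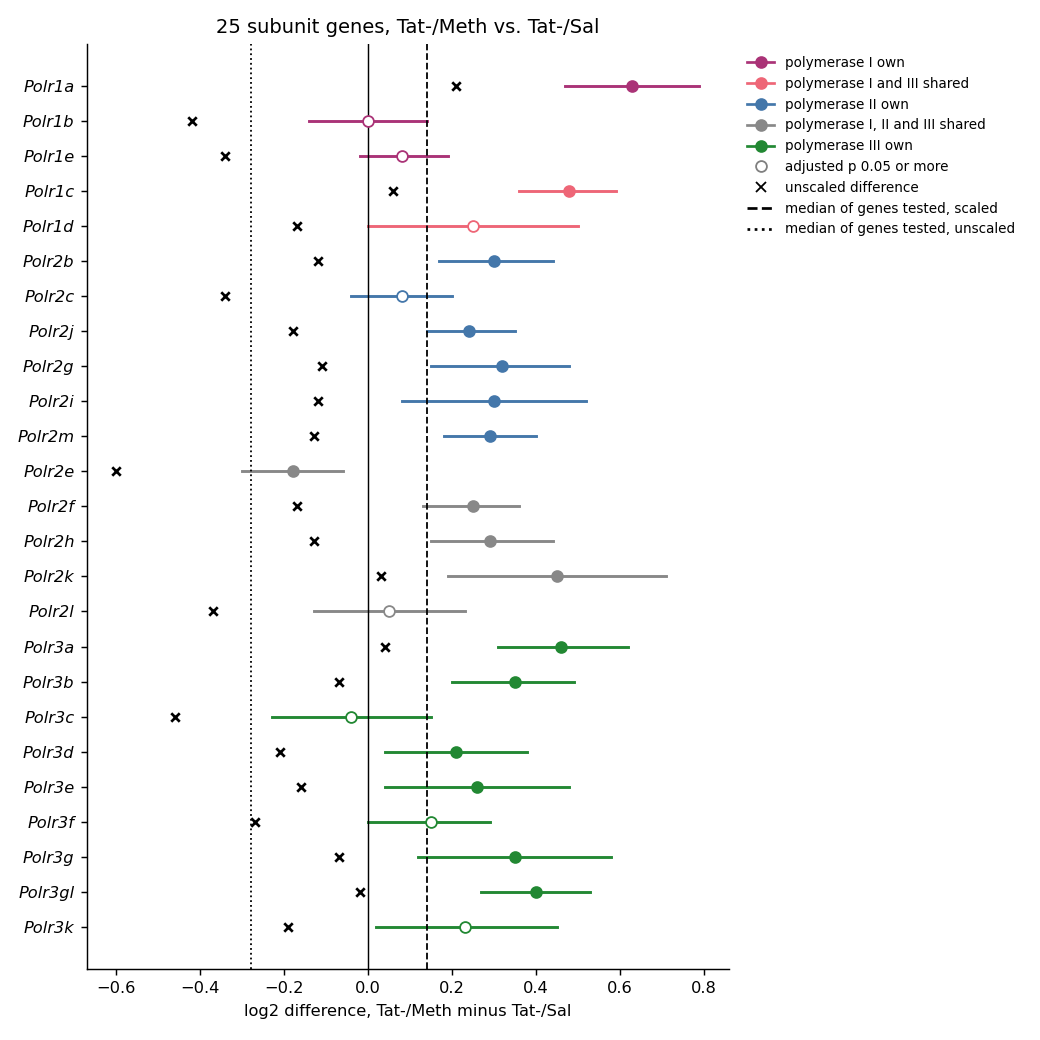
Difference of each subunit gene between Tat-/Meth and Tat-/Sal (log2 units, 5 arrays per group), with 95% intervals on the scaled values, filled circles for an adjusted p under 0.05 and crosses for the unscaled difference. On the scaled values 22 of 25 genes lie above 0 (67.8% of all genes tested) and 19 above the median of all genes (dashed, 0.14), while unscaled 21 lie below 0. The number above the unscaled median of all genes (dotted, -0.28) is also 19, by construction, because scaling moves every gene by the same amount.

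Polymerase I held both the largest scaled difference and the one nearest to 0, in its own pair of large subunits. Polr1a, its largest subunit, which carries the catalytic site, read 11.25, 11.25, 11.23, 11.11 and 11.17 log2 units on the 5 Tat-/Sal arrays and 11.95, 11.75, 11.68, 11.66 and 12.11 on the 5 Tat-/Meth arrays. Every Tat-/Meth array was above every Tat-/Sal array, with a difference of 0.63 ± 0.08 (SE; 1.55-fold, limma adjusted p = 2.38e-06). Unscaled, the difference was 0.21 (adjusted p = 0.0771), still above 0. Polr1b, the second-largest subunit, read 9.83, 9.75, 9.64, 9.76 and 9.69 in Tat-/Sal and 9.71, 9.71, 9.70, 9.85 and 9.68 in Tat-/Meth. These overlapped, with a difference of 0.00 ± 0.07 and a 95% interval of -0.14 to 0.14. Without scaling Polr1b was lower in Tat-/Meth, at -0.42 (adjusted p = 0.00353). Polr1e, a polymerase I subunit that acts in initiation and elongation, differed by 0.08 ± 0.05 (adjusted p = 0.187).

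The alpha-like pair of polymerases I and III was split between a clear and an unclear difference. Polr1c read 12.10, 12.15, 12.13, 12.09 and 12.07 in Tat-/Sal and 12.61, 12.58, 12.54, 12.64 and 12.55 in Tat-/Meth, 2 groups of narrow spread that did not overlap. Its scaled difference was 0.48 ± 0.05 (adjusted p = 1.17e-06) and its unscaled difference 0.06 (adjusted p = 0.666). Polr1d read 13.10, 12.69, 12.91, 12.94 and 13.09 and 13.16, 13.07, 13.02, 13.32 and 13.40 in the same order, with 3 of the 5 Tat-/Meth arrays above all of Tat-/Sal. It differed by 0.25 ± 0.12 and did not pass (adjusted p = 0.0841).

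**Figure D2:**
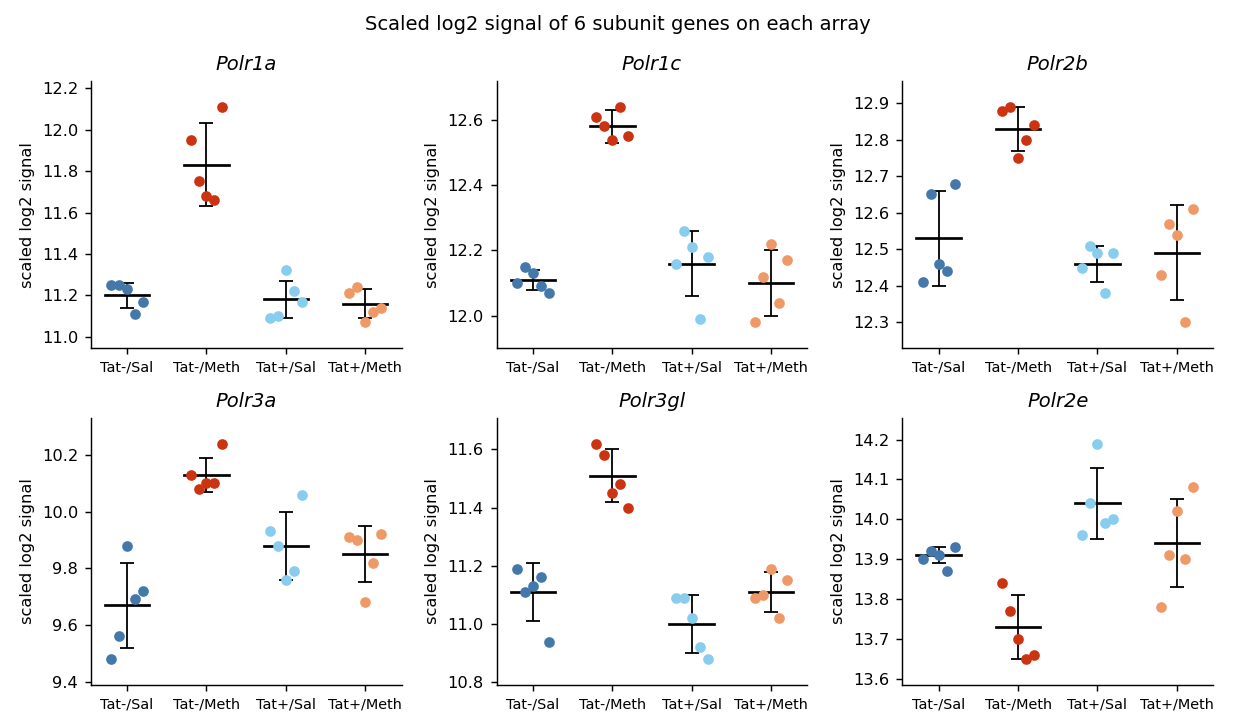
Scaled log2 signal of 6 subunit genes on each of the 20 arrays, by group, with the mean (line) and SD (bar) of 5 arrays. The Tat-/Meth arrays, all on slide 1, lie above every Tat-/Sal array for 5 of the genes and below every Tat-/Sal array for Polr2e, while unscaled the group means of Polr2b and Polr3gl are lower in Tat-/Meth.

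Among polymerase II subunits, Polr2b, the second-largest, read 12.41, 12.65, 12.46, 12.44 and 12.68 in Tat-/Sal and 12.88, 12.89, 12.75, 12.80 and 12.84 in Tat-/Meth. The groups did not overlap, with a scaled difference of 0.30 ± 0.07 (adjusted p = 0.000902) and an unscaled one of -0.12 (adjusted p = 0.267). The other members that passed were Polr2g, which forms part of the stalk over the RNA exit, Polr2i, which acts in start site choice and fidelity, Polr2j of the alpha-like pair, and Polr2m, also called Gdown1, an associated factor. Their scaled differences ran from 0.24 to 0.32 and their unscaled ones from -0.18 to -0.11. Polr2j was among the most precisely measured, at 13.65, 13.61, 13.63, 13.59 and 13.66 in Tat-/Sal and 13.95, 13.84, 13.83, 13.90 and 13.84 in Tat-/Meth (difference 0.24 ± 0.05, adjusted p = 0.000591). Its partner Polr2c differed by 0.08 ± 0.06 and did not pass (adjusted p = 0.228). The pass of Polr2i was lost without Tat-/Meth replicate 5 or without Tat-/Sal replicate 4, with a difference of 0.27 in each case.

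The subunits common to all of the polymerases held the lone gene that fell on the scaled values. Polr2e, which lies at the DNA entry of each enzyme, read 13.90, 13.92, 13.91, 13.87 and 13.93 in Tat-/Sal and 13.84, 13.77, 13.70, 13.65 and 13.66 in Tat-/Meth, with every Tat-/Meth array below every Tat-/Sal array. It was lower, at -0.18 ± 0.06 (SE) on the scaled and -0.60 on the unscaled values, with adjusted p of 0.0156 and 9.27e-06. Polr2k, a small zinc-binding subunit, read 13.73, 13.98, 13.68, 13.62 and 13.79 and 14.33, 14.43, 14.04, 14.04 and 14.20. It was higher on every Tat-/Meth array, by 0.45 ± 0.12 (adjusted p = 0.006; unscaled 0.03). Polr2f and Polr2h were higher by 0.25 ± 0.06 and 0.29 ± 0.07, and Polr2l differed by 0.05 ± 0.09 (adjusted p = 0.657).

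In polymerase III both large subunits were higher on the scaled values. Polr3a, the catalytic one, read 9.48, 9.56, 9.88, 9.69 and 9.72 in Tat-/Sal and 10.13, 10.08, 10.10, 10.10 and 10.24 in Tat-/Meth. The difference was 0.46 ± 0.07 (adjusted p = 5.06e-05) with no overlap, and 0.04 unscaled (adjusted p = 0.775). Polr3b read 9.47, 9.77, 9.78, 9.68 and 9.83 and 10.02, 10.02, 10.11, 10.04 and 10.07, also without overlap (difference 0.35 ± 0.07, adjusted p = 0.000443; unscaled -0.07).

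Polymerase III uses either of a pair of paralogous subunits, Polr3g, known from proliferating and stem cells, or Polr3gl, known from differentiated ones, in the subcomplex that contacts its initiation factor. Polr3gl read 11.19, 11.11, 11.13, 11.16 and 10.94 in Tat-/Sal and 11.62, 11.58, 11.45, 11.48 and 11.40 in Tat-/Meth. Polr3g read 8.77, 8.88, 8.85, 8.96 and 8.87 and 9.33, 9.19, 9.16, 9.25 and 9.13. All Tat-/Meth arrays were above all Tat-/Sal arrays for both, by 0.40 ± 0.06 (adjusted p = 3.2e-05) and 0.35 ± 0.11 (adjusted p = 0.0131), against -0.02 and -0.07 unscaled. The other 2 subunits of that subcomplex did not pass: Polr3c differed by -0.04 ± 0.09 (adjusted p = 0.753) and Polr3f by 0.15 ± 0.07 (adjusted p = 0.0828, unscaled -0.27).

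Polr3d and Polr3e form a subcomplex that acts in initiation and termination, and were higher by 0.21 ± 0.08 and 0.26 ± 0.10, with adjusted p of 0.0372 and 0.0431. Both passes were near the threshold, and neither held in every fit that left out 1 array. Polr3d lost it in 8 of the 20 fits that left out 1 array (Tat-/Meth replicates 1 to 4 and Tat-/Sal replicates 1 to 4; differences 0.16 to 0.21), and Polr3e in 7 (Tat-/Meth replicates 1, 3 and 5 and Tat-/Sal replicates 1, 2, 4 and 5; 0.18 to 0.28). Polr3k, the subunit that cleaves the transcript in a stalled enzyme, differed by 0.23 ± 0.10 (adjusted p = 0.0666, unscaled -0.19).

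**Figure D3:**
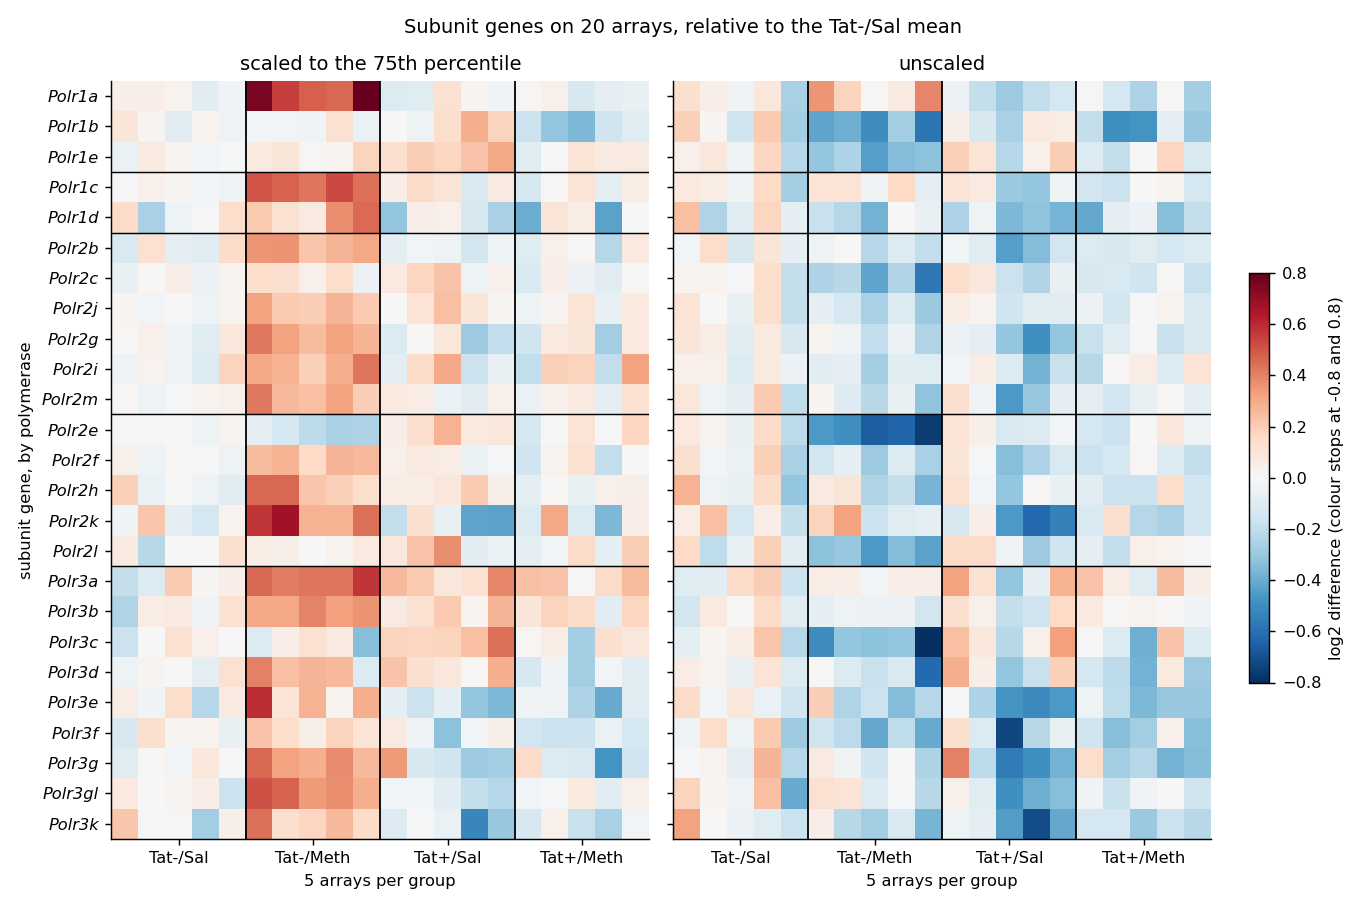
Each subunit gene (rows, by polymerase) on each of the 20 arrays (columns), as the log2 difference from the gene's own Tat-/Sal mean, scaled at left and unscaled at right. On the scaled values 16 genes pass as higher in Tat-/Meth and Polr2e as lower, and unscaled 0 pass as higher and 6 as lower.

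All 6 subunits that passed as lower in Tat-/Meth on the unscaled values were at or below the median gene on the scaled ones: Polr1b (-0.42), Polr1e (-0.34), Polr2c (-0.34), Polr2e (-0.60), Polr2l (-0.37) and Polr3c (-0.46). Polr3c read 9.66, 9.76, 9.80, 9.96 and 9.51 on the unscaled Tat-/Sal arrays and 9.24, 9.43, 9.41, 9.43 and 8.88 on the Tat-/Meth arrays. For comparison Polr1a read 11.50, 11.42, 11.34, 11.46 and 11.11 and 11.72, 11.55, 11.38, 11.44 and 11.76 unscaled. The choice of scale moved every gene by the same 0.42, so the order of the subunits, with Polr1a highest and Polr2e lowest, was alike on both.

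A level effect on the array was looked at beside these counts. With the genes tested put in 4 equal bins by mean signal, none of the subunits was in the dimmest. In bins 2, 3 and 4, from dim to bright, 39.5%, 44.7% and 35.4% of all genes passed as higher in Tat-/Meth, and 4 of 8, 7 of 8 and 5 of 9 subunits did.

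Second probes did not always give the same result. Of the 25 genes, 9 had another probe, and in Tat-/Meth vs. Tat-/Sal 5 of these pairs had opposite signs. In a fit over all probes 3 second probes passed as higher and 4 as lower, with medians of 0.15 for the brightest and -0.12 for the second probes. No share over all genes with a second probe is given beside these counts. They do not show whether the subunits differ from other genes in this. Both scaled probes had the same sign for Polr2e (-0.18 and -0.22), Polr3gl (0.40 and 0.36), Polr3f (0.15 and 0.65) and Polr1e (0.08 and 0.23), and the brightest probes of Polr3f and Polr1e did not pass.

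The opposed pairs were Polr2l, Polr2i, Polr1d, Polr3e and Polr2c. For Polr2i the brightest probe read 13.65, 13.72, 13.65, 13.58 and 13.87 in Tat-/Sal and from 13.88 to 14.12 over the 5 Tat-/Meth arrays, and the second 12.78, 12.75, 12.90, 12.81 and 12.93 and 12.24, 12.20, 12.11, 12.09 and 12.16. Each probe separated the groups completely, the brightest upward by 0.30 ± 0.10 and the second downward, at -0.67 ± 0.10 (SE; adjusted p = 3.33e-05). Polr1d, whose probes name different transcripts of the gene, had a brightest probe that overlapped between the groups and did not pass (0.25), and a second probe that lay lower on every Tat-/Meth array, at 11.96, 12.12, 11.99, 12.07 and 12.11 and 11.47, 11.53, 11.30, 11.50 and 11.71 (difference -0.55 ± 0.09, adjusted p = 0.00018). The second probe of Polr2l was at 12.85, 13.08, 13.13, 13.04 and 13.32 and 11.83, 11.97, 11.91, 11.78 and 12.10, lower, at -1.17 ± 0.10 (adjusted p = 1.62e-07), where the brightest had differed by 0.05. On the scaled values that is the lone change over 2-fold seen with any subunit probe in this comparison. For Polr3e the second probe differed by -0.12 ± 0.19 (adjusted p = 0.618), and for Polr2c by -0.12 ± 0.07 (adjusted p = 0.177). The direction of Polr1d, Polr2i, Polr2l, Polr2c and Polr3e in Tat-/Meth was therefore not settled by these arrays.

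**Figure D4:**
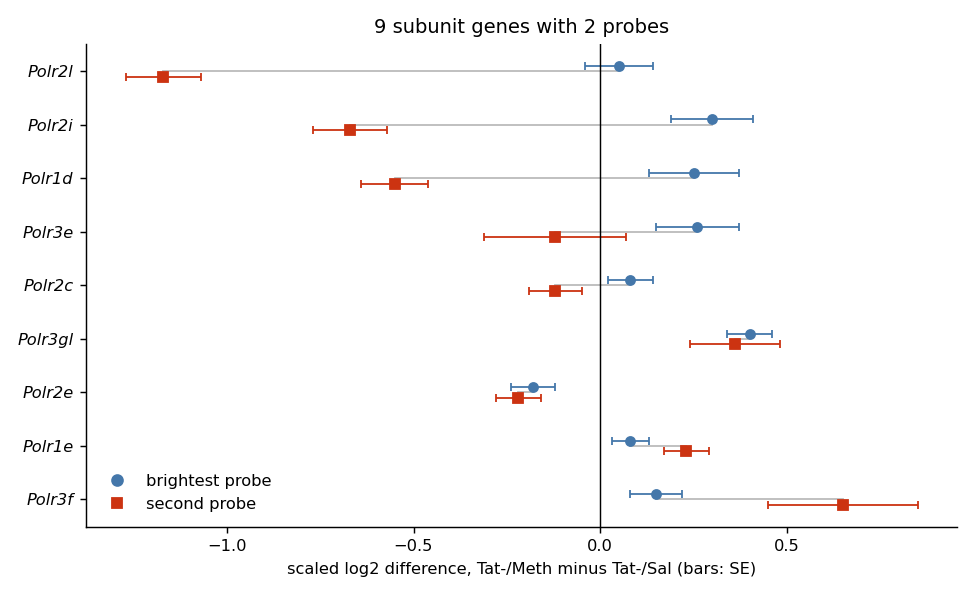
Scaled log2 difference between Tat-/Meth and Tat-/Sal for the 9 subunit genes with 2 probes, brightest (circles) and second (squares), with SE (5 arrays per group). Polr2l, Polr2i, Polr1d, Polr3e and Polr2c have probes on opposite sides of 0, and the unscaled differences are lower throughout by the same 0.42.

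Tat+/Meth vs. Tat-/Meth asks what Tat changes in Meth-treated mice, and uses the same 5 Tat-/Meth arrays. On the scaled values 19 of the 25 subunits were lower and 1 higher in Tat+/Meth, against 38.5% and 16% of all genes tested (54.4% either way), whereas unscaled 1 was lower and 4 were higher, against 2.17% and 34.6% of all genes. The median of the subunits was -0.28 and that of all genes -0.15, and unscaled 0.05 and 0.19. For 16 of the subunits, and 26.8% of all genes, every Tat+/Meth array lay below every Tat-/Meth array. By its brightest probe none passed above 2-fold, as 7.22% of all genes did. The second probes of Polr2l, Polr2i and Polr1d were higher in Tat+/Meth on the scaled values, at 1.27 ± 0.10 (over 2-fold, adjusted p = 5.48e-08), 0.85 ± 0.10 (adjusted p = 2.29e-06) and 0.51 ± 0.09 (adjusted p = 0.000317), where the brightest differed by -0.01, -0.24 and -0.38.

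Polr1a was again the most different, at 11.21, 11.24, 11.07, 11.12 and 11.14 on the 5 Tat+/Meth arrays, all of them below the 5 Tat-/Meth arrays. It was lower, at -0.67 ± 0.08 (SE; adjusted p = 8.99e-07), and unscaled at -0.33 (adjusted p = 0.0082), the lone subunit to pass as lower on both scales. Polr1c read 11.98, 12.12, 12.22, 12.04 and 12.17 and Polr1b 9.56, 9.42, 9.37, 9.57 and 9.63 in Tat+/Meth, each below every Tat-/Meth array (differences -0.48 ± 0.05 and -0.22 ± 0.07; unscaled -0.14 and 0.12). In Tat-/Meth vs. Tat-/Sal the scaled estimate for Polr1b was 0.00. Polr1d, at 12.55, 13.05, 13.01, 12.52 and 12.95, was lower, at -0.38 ± 0.12 (adjusted p = 0.0111).

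Of the polymerase II subunits 4 of 6 were lower on the scaled values (unscaled 0), among them Polr2b at 12.43, 12.57, 12.54, 12.30 and 12.61 (-0.34 ± 0.07, adjusted p = 0.000281; unscaled 0.00). Of the common subunits, Polr2k had the largest difference, at 13.65, 14.07, 13.65, 13.40 and 13.81 (-0.49 ± 0.12, adjusted p = 0.0027, unscaled -0.16), with 4 of the 5 Tat+/Meth arrays below all of Tat-/Meth. Polr2e was the lone subunit higher in Tat+/Meth on the scaled values, at 13.78, 13.91, 14.02, 13.90 and 14.08, with 4 of 5 arrays above all of Tat-/Meth. The difference was 0.21 ± 0.06 scaled (adjusted p = 0.005) and 0.55 unscaled (adjusted p = 3.01e-05). Polr1e (0.28), Polr2l (0.33) and Polr3c (0.38) passed as higher with it on the unscaled values alone.

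Polymerase III subunits were lower in 8 of 9 cases on the scaled values, and unscaled in 0, with Polr3c higher and a median of 0.02. Polr3a read 9.91, 9.90, 9.68, 9.82 and 9.92 and Polr3b 9.81, 9.89, 9.86, 9.62 and 9.88 in Tat+/Meth, below every Tat-/Meth array in both cases (-0.28 ± 0.07 and -0.24 ± 0.07; unscaled 0.06 and 0.09). Polr3g read 9.02, 8.76, 8.75, 8.39 and 8.71 and Polr3gl 11.09, 11.10, 11.19, 11.02 and 11.15, again with no overlap (-0.48 ± 0.11, adjusted p = 0.0011, and -0.40 ± 0.06, adjusted p = 2.98e-05; unscaled -0.15 and -0.06). Polr3e, at 11.29, 11.29, 11.07, 10.92 and 11.22, was lower, at -0.42 ± 0.10 (adjusted p = 0.00215, unscaled -0.08). Polr3c was the exception, with a difference of 0.04 ± 0.09 (adjusted p = 0.706).

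The interaction asks whether the effect of Meth differed between Tat+ and Tat- mice, and takes the difference Tat+/Meth minus Tat+/Sal less the difference Tat-/Meth minus Tat-/Sal. On the scaled values of the brightest probes it was negative in 24 of the 25 subunits and passed in 14, all of them negative. Of all genes 33.6% were above 0. Of all genes 5437 (36%) passed, 23.6% as negative and 12.4% as positive. Unscaled it passed in 2, Polr2e (0.57) and Polr2l (0.37), both positive, against 38.6% of all genes. The scaled median was -0.28, with -0.14 for all genes.

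All 5 large subunits measured passed, at -0.65 ± 0.11 for Polr1a (adjusted p = 0.000138), -0.50 ± 0.10 for Polr3a, -0.39 ± 0.10 for Polr3b, -0.33 ± 0.10 for Polr1b and -0.28 ± 0.09 for Polr2b. The pass of Polr2b was lost without Tat-/Sal replicate 1 or 4, at -0.25 each. By the brightest probes the second-largest interaction was that of Polr1c, at -0.53 ± 0.08 (adjusted p = 3.56e-05), with Tat+/Sal arrays at 12.16, 12.26, 12.21, 11.99 and 12.18. Polr2c passed at -0.22 ± 0.08 (adjusted p = 0.0429) from Tat+/Sal arrays at 13.78, 13.87, 13.93, 13.66 and 13.74 and Tat+/Meth arrays at 13.58, 13.75, 13.65, 13.61 and 13.71, but its second probe was at 0.11 ± 0.09 and 12 of the 20 fits that left out 1 array did not pass (-0.22 to -0.18), those without Tat-/Meth replicates 1, 2 or 4, Tat-/Sal replicates 1, 2 or 4, Tat+/Meth replicates 1, 3 or 4, or Tat+/Sal replicates 1, 2 or 3.

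The comparisons that do not use slide 1 showed little. With Meth and saline compared among Tat+ mice (Tat+/Meth vs. Tat+/Sal), none of the 25 subunits passed in limma, 5 had an unadjusted p under 0.05, and the methods' t-test gave 0 after adjustment and 6 before. No gene of the 15102 passed (0%), and 12.2% had an unadjusted p under 0.05. The median of the subunits was -0.04 scaled and 0.03 unscaled. The 95% intervals of the single genes lay between -0.47 and 0.41.

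The 5 with an unadjusted p under 0.05 were all lower in Tat+/Meth on the scaled values. Polr1b was the most different, at 9.73, 9.69, 9.87, 10.02 and 9.91 in Tat+/Sal and 9.56, 9.42, 9.37, 9.57 and 9.63 in Tat+/Meth, without overlap (difference -0.33 ± 0.07, adjusted p = 0.218; -0.24 ± 0.11 within slide 3). In all, 5 subunits had every Tat+/Meth array below every Tat+/Sal array, Polr1b, Polr1e, Polr2h, Polr3c and Polr3d, as had 1.41% of all genes. Within slide 3, where 2 Tat+/Meth and 5 Tat+/Sal arrays lay together, their differences were -0.24, -0.14, -0.05, -0.13 and -0.21. Among the large subunits the other four differed by -0.04 to 0.03, and their intervals stayed between -0.19 and 0.17.

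Tat without Meth (Tat+/Sal vs. Tat-/Sal) gave 1 subunit that passed, Polr1e, where 1.42% of all genes did (0.768% as higher). It read 9.10, 9.22, 9.17, 9.13 and 9.14 in Tat-/Sal and 9.28, 9.35, 9.32, 9.38 and 9.46 in Tat+/Sal, and the groups did not overlap. The difference was 0.21 ± 0.05 (adjusted p = 0.048), and 0.06 unscaled (adjusted p = 0.714). These groups were on slides 2 and 3, and with the slide as a block, through the Tat+/Meth arrays present on both, the difference was 0.14 ± 0.09 (adjusted p = 0.891). The Tat+/Meth arrays read 9.05, 9.14, 9.26, 9.22 and 9.22, the first 3 on slide 2 and the last 2 on slide 3. The pass held in 4 of the 20 fits without 1 array, those without Tat-/Meth replicate 5, Tat-/Sal replicate 3, Tat+/Meth replicate 1 or Tat+/Sal replicate 1. In the other 16 the adjusted p was 0.0517 to 0.167 at differences of 0.18 to 0.22. The second probe of Polr1e was higher by 0.31 ± 0.06, with every Tat+/Sal array above every Tat-/Sal array. In the limma fit over all probes its adjusted p was 0.0368 and that of the brightest probe 0.0914.

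Without passing, Polr2e and Polr3c also had every Tat+/Sal array above every Tat-/Sal array on the scaled values (a pattern in 1.85% of all genes). Polr2e ran from 13.96 to 14.19 over the 5 Tat+/Sal arrays and differed by 0.13 ± 0.06 (adjusted p = 0.221). Polr3c read 9.76, 9.75, 9.76, 9.82 and 10.02 against 9.41, 9.58, 9.70, 9.62 and 9.58 and differed by 0.25 ± 0.09 (adjusted p = 0.142). Polr3a, at 9.93, 9.88, 9.76, 9.79 and 10.06 in Tat+/Sal, differed by 0.22 ± 0.07 (adjusted p = 0.115). With the slide as a block these were 0.04, 0.07 and 0.18. The intervals of all 25 lay between -0.46 and 0.44, and the median difference was 0.03 scaled and -0.12 unscaled.

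Both exposures together (Tat+/Meth vs. Tat-/Sal) gave no subunit that passed in limma or in the methods' t-test after adjustment, with 2 at an unadjusted p under 0.05 in each, Polr1b (-0.22 ± 0.07) and Polr3a (0.18 ± 0.07) in limma. No gene of the 15102 passed (0%) and 7.79% had an unadjusted p under 0.05. The median difference of the subunits was -0.03 and the intervals lay between -0.38 and 0.34. Within slide 2, with 3 Tat+/Meth and 5 Tat-/Sal arrays, differences ran from -0.28 to 0.17 and none passed.

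Levels of a subunit over the 4 groups can be put in order from its own probe. Mean scaled levels of Polr1a were 11.83 ± 0.20 (SD, n = 5) in Tat-/Meth and 11.20 ± 0.06 in Tat-/Sal. They were 11.18 ± 0.09 with Tat and saline and 11.16 ± 0.07 with Tat and Meth, and these and Tat-/Sal did not differ beyond their spread. The order was of the same kind for Polr1c, with 12.58 ± 0.05 in Tat-/Meth and 12.10 ± 0.10 to 12.16 ± 0.10 in the rest. Polr2e ran the other way, from 13.73 ± 0.08 in Tat-/Meth to 14.04 ± 0.09 in Tat+/Sal, with Tat-/Sal (13.91 ± 0.02) and Tat+/Meth (13.94 ± 0.11) between them. Unscaled, Tat-/Meth, on a slide of its own, was at 12.33 ± 0.10 for Polr1c and overlapped with the rest (means 12.18 to 12.27). For Polr1a it was at 11.57 ± 0.17 (rest 11.20 to 11.37) and for Polr2e at 13.47 ± 0.13 (rest 14.02 to 14.07).

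The polymerase I subunits under older symbols were looked at in the same fit. Twistnb, a stalk subunit now called Polr1f, read 10.63, 10.60, 10.67, 10.62 and 10.43 in Tat-/Sal and 11.09, 11.15, 11.12, 11.18 and 11.04 in Tat-/Meth. It was higher by 0.53 ± 0.06 (adjusted p = 2.48e-06; unscaled 0.10), while its other 2 probes gave 0.32 ± 0.13 and -0.22 ± 0.13. In Tat+/Meth vs. Tat-/Meth it was lower, at -0.65 ± 0.06 (adjusted p = 1.67e-07; unscaled -0.31, adjusted p = 0.0523). Znrd1, now Polr1h, was higher in Tat-/Meth by 0.29 ± 0.07 (adjusted p = 0.00248; unscaled -0.13). Cd3eap, now Polr1g, differed by 0.10 ± 0.14 and did not pass (adjusted p = 0.559).

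The factors that work with the polymerases were taken from lists, 97 genes tested of 100 listed. In Tat-/Meth vs. Tat-/Sal 44 of the 97 passed as higher and 13 as lower on the scaled values, with a median of 0.16, against 35% and 15.3% of all genes and a median of 0.14. Unscaled, 0 were higher and 50 lower, with a median of -0.27, against 0.828% and 46.7% of all genes and a median of -0.28. Those lower on that scale were 6 of the polymerase III factors, 4 TBP-associated factors, 6 other general factors, 5 polymerase I factors, 6 assembly factors, 4 mitochondrial factors, 8 kinases and phosphatases and 12 pausing and elongation factors, with 1 gene in 2 of these lists. On the scaled values, polymerase III factors, which recognise its promoters, had 10 of 16 higher and 0 lower (median 0.21), for example Snapc3 of the snRNA activating complex at 0.36 ± 0.07 (adjusted p = 0.00019; unscaled -0.06) and Gtf3c5 of TFIIIC at 0.24 ± 0.05 (adjusted p = 0.000847; unscaled -0.18). Of the TBP-associated factors of TFIID, 8 of 12 were higher and 1 lower (median 0.27), led by Taf11 and Taf12 at 0.35 and 0.36 (unscaled -0.07 and -0.06). The other general factors of polymerase II had 9 of 18 higher and 1 lower, and both ends of the range were TFIIH subunits: Gtf2h2 was higher by 0.63 ± 0.08 (adjusted p = 7.14e-06; unscaled 0.21) and Gtf2h5 lower, at -1.34 ± 0.13 (adjusted p = 2.2e-07; unscaled -1.76).

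The next counts stand beside 35% of all genes that passed as higher and 15.3% as lower on the scaled values. Polymerase I factors had 2 of 7 higher and 2 lower. Ubtf, the factor that shapes active ribosomal DNA, was lower, at -0.80 ± 0.10 (adjusted p = 5.43e-06; unscaled -1.22), and Taf1b, of the promoter selectivity complex SL1, higher by 0.51 ± 0.08 (adjusted p = 3.2e-05; unscaled 0.08). Polymerase assembly factors had 3 of 9 higher and 2 lower, and the paired ATPases Ruvbl1 and Ruvbl2 moved apart on the scaled values, by 0.40 ± 0.05 (adjusted p = 2.83e-06; unscaled -0.02) and -1.96 ± 0.15 (adjusted p = 8.01e-09; unscaled -2.38). The factors of mitochondrial transcription had 2 of 6 higher, Tefm at 0.46 ± 0.10 (unscaled 0.03) and Tfam at 0.21 ± 0.06 (unscaled -0.21). The kinases and phosphatases of the polymerase II tail had 4 of 11 higher and 2 lower, with Ctdspl at 0.45 ± 0.08 (unscaled 0.03) and Ctdsp2 at -0.58 ± 0.09 (unscaled -1.0).

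Pausing and elongation factors, which include the P-TEFb kinase that Tat binds, had 6 of 19 higher and 5 lower in Tat-/Meth (median 0.03). Of all genes 35% were higher and 15.3% lower (median 0.14). Aff4, the scaffold of the super elongation complex, was lower, at -0.82 ± 0.07 (adjusted p = 4.62e-08; unscaled -1.24) and Hexim2, an inhibitor of P-TEFb, at -0.82 ± 0.09 (adjusted p = 5.4e-07; unscaled -1.24). Tat+/Sal and Tat-/Sal were on different slides, and the part of the slide in the differences of these factors between them was not tested. In Tat+/Sal vs. Tat-/Sal, Aff4 was the lone gene of the 97 that passed, where 1.42% of all genes did. It was lower in Tat+/Sal at -0.37 ± 0.07 (adjusted p = 0.0283; unscaled -0.52), with no overlap between the groups. Unscaled, 0 of the 97 passed in this comparison. Ccnt1, the cyclin of P-TEFb that Tat contacts, differed by 0.30 ± 0.08 there (adjusted p = 0.0538; unscaled 0.15), Snapc3 by -0.26 ± 0.07 (adjusted p = 0.0509) and the polymerase III factor Bdp1 by -0.25 ± 0.06 (adjusted p = 0.0541). None of the 97 passed in Tat+/Meth vs. Tat+/Sal or in Tat+/Meth vs. Tat-/Sal, where 11 had an unadjusted p under 0.05 in each, against 0% of all genes that passed and 12.2% and 7.79% with an unadjusted p under 0.05.

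**Figure D5:**
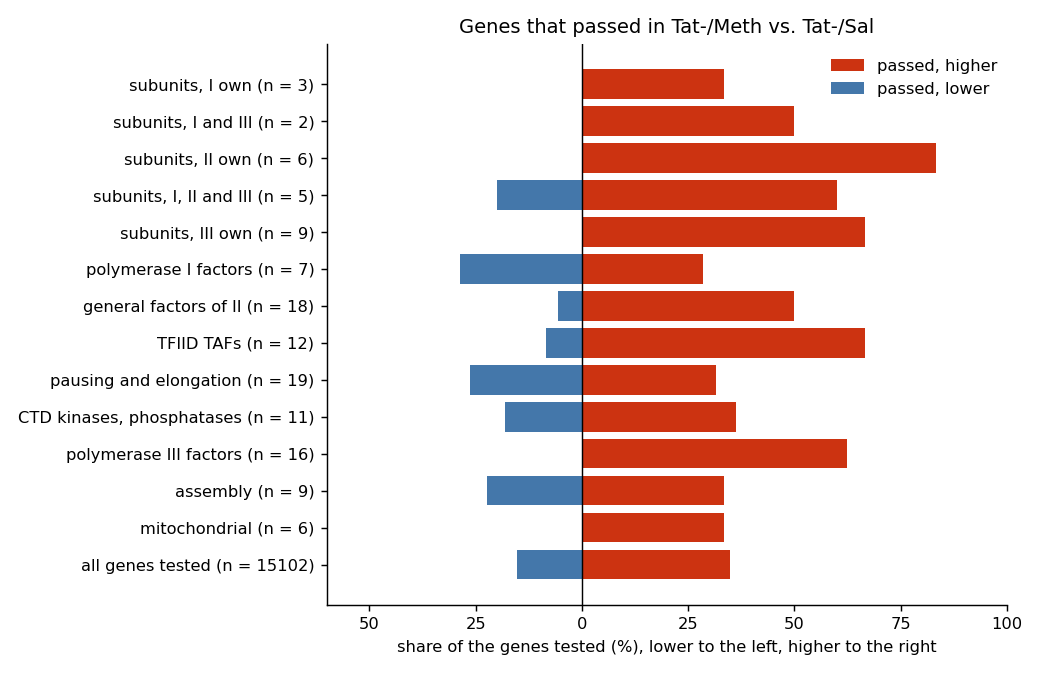
Share of the genes tested (%) that passed as higher (right) or lower (left) in Tat-/Meth vs. Tat-/Sal on the scaled values, for the subunits by polymerase, the lists of other transcription factors and all genes. On this scale no gene passed as lower among the subunits of I, II or III alone and those shared by I and III. The same holds for polymerase III factors and mitochondrial factors, and 15.3% of all genes passed as lower. Unscaled, 6 of the 25 subunits passed as lower and 0 as higher, against 46.7% and 0.828% of all genes.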

How the data were processed

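RNA from 20 mice, 5 per group, was hybridised to 1-colour Agilent arrays, 1 array per mouse. The authors deposited scanner intensity tables, which per the file headers were made with Agilent Feature Extraction 10.7.3.1: the processed intensity is background-subtracted and detrended within an array, and flags mark spots well above background, saturated or irregular. The deposited value table held the background-subtracted signal plus a constant per array, matching 99.8 to 100.0% of single-spot probes. Labels give Cy3 labelling; the study's methods describe Cy5 and another scanner program, which the headers do not show.

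Control spots (3671 of 62976) and 4278 flagged spots over all arrays were left out, spots of a probe averaged, and log2 intensity scaled by subtracting each array's 75th percentile and adding the mean of these percentiles, which spanned 0.7 log2 units. Unscaled values omit that step. Probes were named through the RefSeq transcript they carry (27656 of 55681 probes, 20972 symbols) and the brightest probe stood for a gene. Tested were genes that averaged 6 or more in any group, with values on 3 or more arrays of each, 15102 in all. limma 3.58.1 in R 4.3.3 was fitted over the 4 groups, with Benjamini-Hochberg adjustment over all genes. "Passed" means an adjusted p under 0.05, and errors are SE of a difference or SD of 5 arrays. The script was tested on simulated data.

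Groups came from sample titles, and 1 gene that matches the name rule is not reported here. Array values are given for the largest changes per comparison and direction, the large subunits, Polr3g and Polr3gl and genes whose probes disagree, and others where they show a group. Members and lists were chosen with earlier results of these data known. Alternatives were other scalings and backgrounds (normexp used median signals and offset 50), filters, probes, thresholds, slide and replicate blocks, the methods' t-test and leaving out each array, keeping the brightest probes and genes tested where the scaling alone was changed. Centring on the median of the genes tested was added after seeing the data. The number of arrays limits the precision, and the p-values measure the spread between these mice.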

Additional observations from a re-analysis of the deposited data

Results flagged for a closer look

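In 6 of 100 sets of 5 arrays (25 genes in 4 groups) 1 array stood apart from the other four, where chance gives about 1 in 20. Polr1b read 9.85 in Tat-/Meth replicate 4 (others 9.68 to 9.71). In Tat+/Sal, Polr2h read 11.68 in replicate 4 (others 11.52 to 11.56), Polr3c 10.02 in replicate 5 (9.75 to 9.82), Polr3f 8.31 in replicate 3 (8.61 to 8.71) and Polr3g 9.21 in replicate 1 (8.58 to 8.74). Polr3f also read 8.59 in Tat+/Meth replicate 4 (8.47 to 8.50).

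By the brightest probes, the effect of Meth differed between Tat+ and Tat- mice for 14 of the 25 subunits on the scaled values (interaction in limma). Of the 15102 genes tested 5437 (36%) passed, and without scaling none of these 14 subunits did. The interactions in log2 units were -0.65 for Polr1a, -0.33 for Polr1b, -0.53 for Polr1c, -0.26 for Polr1e, -0.28 for Polr2b, -0.22 for Polr2c, -0.31 for Polr2f and -0.39 for Polr2h. They were -0.32 for Polr2j, -0.27 for Polr2m, -0.50 for Polr3a, -0.39 for Polr3b, -0.47 for Polr3d and -0.29 for Polr3gl. Group Tat-/Meth, which enters each of them, was on a slide of its own, and the interaction and that slide cannot be told apart.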

How the results depend on the processing

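The scale decided the direction of most results with Tat-/Meth. Without scaling, 6 subunits passed in Tat-/Meth vs. Tat-/Sal (0 higher and 6 lower, against 16 and 1), 5 in Tat+/Meth vs. Tat-/Meth (4 higher and 1 lower, against 1 and 19) and 2 in the interaction (both positive, against 14 negative), and 0 in Tat+/Sal vs. Tat-/Sal. Scaling to the median left 6, 12, 3 and 0 in that order, at larger median differences in the first 3 (0.38, -0.44 and -0.51, against 0.26, -0.28 and -0.28). The medians of all genes moved too, to 0.26, -0.31 and -0.37 from 0.14, -0.15 and -0.14. Quantile normalization, normexp and the deposited value table kept these counts within 1.5 times, except that normexp and the value table gave 0 in Tat+/Sal vs. Tat-/Sal. Centring on the median of the genes tested, chosen after seeing the data, gave 13, 18, 9 and 1. Except without scaling, shares of all genes that passed are not given for these settings or for the alternatives below. A change in these counts is therefore not a result about the subunits. Signs that turned without scaling in Tat-/Meth vs. Tat-/Sal were those of Polr2b (-0.12), Polr2f (-0.17), Polr2g (-0.11), Polr2h (-0.13), Polr2i (-0.12), Polr2j (-0.18), Polr2m (-0.13), Polr3b (-0.07), Polr3d (-0.21), Polr3e (-0.16), Polr3g (-0.07) and Polr3gl (-0.02). In Tat+/Meth vs. Tat-/Meth they were Polr1b (0.12), Polr2f (0.05), Polr2h (0.04), Polr2j (0.12), Polr2m (0.07), Polr3a (0.06), Polr3b (0.09), Polr3d (0.02) and Polr3f (0.06). In the interaction they were Polr1b (0.16), Polr1e (0.23), Polr2b (0.21), Polr2c (0.27), Polr2f (0.18), Polr2h (0.10), Polr2j (0.17), Polr2m (0.21), Polr3b (0.10), Polr3d (0.02) and Polr3gl (0.20). Second probes, present for 9 genes, passed in 7 (3 higher, 4 lower), 6 (3 and 3) and 4 (3 and 1) cases in these comparisons, and turned Polr2i (-0.67) and Polr3e (-0.12) in the first, Polr1d (0.51) in the second and Polr2c (0.11) in the interaction. The mean over probes turned Polr2i (-0.19) and Polr1d (0.06). The cause was not tested.

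By their brightest probes none of the subunits passed above 2-fold, or above 3-fold at an adjusted p under 0.01, in any comparison (0 each). Leaving out 1 array gave 14 to 18 passes in Tat-/Meth vs. Tat-/Sal, 20 to 21 in Tat+/Meth vs. Tat-/Meth, 12 to 16 in the interaction, 0 to 2 for Tat under saline and 0 in the remaining pair. The 1 pass in Tat+/Sal vs. Tat-/Sal, Polr1e, became 0 with either other filter on low values or the slide as a fixed block. It also became 0 with the fit of the groups compared alone and the methods' t-test after adjustment. It stayed 1 with the mean over probes or the second brightest probes, and became 4 with the slide as a random block. Before adjustment the methods' t-test gave 5 there, 6 in Tat+/Meth vs. Tat+/Sal and 2 for both exposures (Tat+/Meth vs. Tat-/Sal), where limma gave 4, 5 and 2 before adjustment. Of all genes 20.5%, 12.2% and 7.79% had an unadjusted p under 0.05 in limma, in the same order. A fixed slide block could not be fitted for Tat-/Meth. With the replicate number as a block, 17, 21, 16, 1, 0 and 0 passed, in the order Tat-/Meth vs. Tat-/Sal, then Tat+/Meth vs. Tat-/Meth, the interaction, Tat+/Sal vs. Tat-/Sal, and the remaining pair. The numbers were not taken to pair the mice, which these values do not settle. Deviations of 30 same-numbered pairs correlated at -0.176 to 0.358 (8 over 0.1), and 8 of 20 arrays lay closest to their own number. What chance would give was not worked out. The dimmest subunits were still well above background on every array.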
